A study of Mus musculus with 5 samples.

Results

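Insm1 and Insm2 encode a pair of related zinc-finger proteins linked to the moment when a neural progenitor leaves the epithelium that lines the ventricle. Here they are described across single cells of the developing mouse cerebellum, as 2 genes of the 15971 in the deposited table. Both were chosen from measured values of these cells, by how their rows looked in cells sorted by detection of 6 marker genes: Sox2, Atoh1, Barhl1, Mki67, Eomes and Mapt. Their levels by those markers are therefore a description with no test, and tests are kept for other genes in cells with and without a unique molecular identifier (UMI, 1 counted RNA molecule) of either gene. Insm1 had at least 1 UMI in 4403 of 6987 cells, and Insm2 in 463.

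As background, INSM1 is a transcriptional repressor. A short SNAG domain at its amino terminus recruits the histone demethylase KDM1A together with corepressors of the RCOR family, and its C2H2 zinc fingers bind DNA. In mouse embryos it is switched on for a short time as progenitors delaminate, that is, give up their apical attachment, become basal or intermediate progenitors and start to form neurons. In mouse cortex it represses the junction gene Plekha7. INSM2 is its closest relative and has been studied far less. In the cerebellum the rhombic lip is the germinal zone of the glutamatergic neurons: Sox2 marks its stem-like cells, Atoh1 and then Barhl1 the granule cell lineage, Eomes the unipolar brush cell lineage, Mki67 cycling cells and Mapt differentiating neurons.

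The most alike 84-base stretch of the coding sequences, read in frame, is shown because it covers most of the first zinc finger match. It starts before that match and ends before its last histidine codon. The stretch was picked for its likeness, so its identity says nothing of the rest of the coding sequences. Capitals mark bases that are identical in both genes at the same position, lower case those that differ. It lies at chr2:146223145-146223228 in Insm1 and at chr12:55600145-55600228 in Insm2 (mm10, plus strand), with 76 of 84 bases identical (90.5%).
Insm1 coding bases 880 to 963: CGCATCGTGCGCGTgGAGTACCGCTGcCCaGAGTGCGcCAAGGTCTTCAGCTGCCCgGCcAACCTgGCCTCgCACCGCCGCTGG
Insm2 coding bases 673 to 756: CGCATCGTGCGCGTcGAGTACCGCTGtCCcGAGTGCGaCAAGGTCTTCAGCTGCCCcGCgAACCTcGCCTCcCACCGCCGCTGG

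Each coding sequence held 4 matches to the codon pattern of a C2H2 finger, the first starting at coding base 904 in Insm1 and 697 in Insm2. Insm1 (ENSMUSG00000068154) spans bases 146221921 to 146225020 of chromosome 2 and Insm2 (ENSMUSG00000045440) bases 55599427 to 55602086 of chromosome 12, each as 1 exon, with coding lengths of 1563 and 1479 bases. No annotated gene overlapped either. The nearest neighbour, Ralgapa1, lies on the other strand, with its 3′ end 810 bases beyond Insm2. Mature and unspliced transcripts of a gene with 1 exon cannot be told apart.

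The study profiled dissociated cerebellar cells with droplet 3′ RNA sequencing. There was 1 library titled EomesCreER at embryonic day 16, 2 libraries titled RL at day 14 and 2 titled RL at day 13, all given as mouse cerebellum with no strain stated. The EomesCreER name denotes a mouse line in which an inducible Cre recombinase is driven by the Eomes gene; the sources used here do not say how its cells were picked. RL is taken to be the rhombic lip, after the title of the series, and the remaining letters in the RL titles are not explained. RL e13 replicate 2 carries day 13 in its title and day 14 in its age tag, and it was grouped by title. The batch of the e16 library had a name that matches no title and was assigned by elimination, as was that of RL e14 replicate 1, whose title has no number. Nothing states that replicates came from separate embryos, so a p-value at best measures the spread between libraries, which may be technical. The test used below, limma, also takes part of each gene's spread from all genes together, and most of it where few libraries were compared.

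The libraries held 706 to 2676 cells and 13607965 to 33502151 UMIs, with median depths of 10346 UMIs per cell at e16 and 15855 to 19970 in the RL libraries. Any pair of libraries shared at most 2 cell barcodes. RL e13 replicate 1 stood apart: 34.99% of its cells had Sox2 and Atoh1 without Barhl1, against 2.70% to 7.92% in the other 3 RL libraries, and it had the fewest Eomes cells. The e16 library consisted almost wholly of Eomes cells, with 2270 of 2676 cells holding Eomes and Mapt without Mki67. Levels below are CPM, the mean over cells of a gene's share of a cell's UMIs, scaled to a sum of 1000000. Shares carry 95% Wilson intervals, which cover counting error only.

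Insm1 was a moderately abundant RNA in every library except RL e13 replicate 1. Its mean level over all cells was 52.4 CPM in RL e13 replicate 1 and 363 CPM in RL e13 replicate 2, 458 and 501 CPM in RL e14 replicates 1 and 2, and 204 CPM at e16. It was detected in 16.9% of cells (14.3% to 19.8%), 66.4% (64.2% to 68.6%), 79.1% (76.5% to 81.4%), 80.7% (77.7% to 83.4%) and 61.7% (59.8% to 63.5%) of cells in the same order. The spread between the 2 day 13 libraries was thus wider than that between day 14 and RL e13 replicate 2. Cells thinned to 5000 UMIs kept the order of the libraries, with shares of 9.42%, 58.6%, 69.7%, 71.6% and 45.3%.

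Sorting the cells by the 6 markers into 13 exclusive classes showed where the RNA was. Insm1 was near 0 in cells with Sox2 and none of Atoh1, Barhl1 and Eomes. Without Mki67 these Sox2 cells had 9.13 and 5.19 CPM in RL e13 replicates 1 and 2, and 3.48 and 6.83 CPM in RL e14 replicates 1 and 2 (mean 6.16 ± 2.41, SD, n = 4 libraries). With Mki67 they had 9.21, 5.47, 2.02 and 8.58 CPM in the same libraries (6.32 ± 3.30). The cycling and non-cycling Sox2 cells overlapped across libraries, and 2.47% to 13.9% of them had an Insm1 UMI. Among 15 cells marked by roof plate and choroid plexus genes, which should lack the gene, 1 had an Insm1 UMI (6.67%, 1.19% to 29.8%) at a median depth of 19398 UMIs. These cells were picked without regard to Sox2, so some may be among the Sox2 cells. With 15 cells the interval is too wide to tell the share in Sox2 cells from a background.

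Levels were somewhat higher in cells that had Atoh1 without Barhl1, and much higher in those that had Barhl1 as well. Cells with Sox2 and Atoh1 but no Barhl1 averaged 14.01 and 48.5 CPM in RL e13 replicates 1 and 2 and 47.0 and 63.4 CPM in RL e14 replicates 1 and 2, with 11.7% to 20.1% of cells positive. Cells with Sox2, Atoh1 and Barhl1 averaged 283, 512, 525 and 594 CPM in the same libraries, with 55.6%, 93.6%, 98.0% and 98.1% positive. In each library the second class lay far above the first, and RL e13 replicate 1 was lowest in both. In cells thinned to 5000 UMIs before the markers were called, the class without Barhl1 averaged 165 ± 102 CPM (n = 4), against 43.2 ± 20.8 CPM at full depth. Thinning can move cells between classes when a marker RNA is missed, and the part of this in the difference was not tested.

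Insm1 was also high in cells without a Sox2 UMI. Cells with Atoh1 and no Sox2 had 577, 645 and 658 CPM with Mki67 in RL e13 replicate 2 and RL e14 replicates 1 and 2, where 98.4% or more were positive. Without Mki67 they had 520, 560 and 609 CPM. In each of these 3 libraries the cycling cells were higher, but the ranges of both classes overlapped. Cells with Barhl1 and neither Atoh1 nor Mapt were fewer and varied more, with 230 CPM in 31 cells of RL e13 replicate 2 (38.7% positive) and 652 CPM in 28 cells of RL e14 replicate 1 (75% positive). Cells with Barhl1 and Mapt but no Atoh1 had 627 and 601 CPM in RL e13 replicate 2 and RL e14 replicate 1, while the 108 such cells at e16 had 211 CPM.

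The highest levels were in Eomes cells. Those with Mki67 had 640 CPM in RL e13 replicate 2, 709 and 840 CPM in RL e14 replicates 1 and 2, and 649 CPM at e16 (709 ± 92.1, n = 4). Those with neither Mki67 nor Mapt had 600, 577, 790 and 508 CPM (619 ± 121), and those with Mapt and no Mki67 had 507, 495, 461 and 157 CPM (405 ± 167). In all 4 libraries the Mapt cells without Mki67 were lowest and the Mki67 cells highest. The e16 library was the outlying one among Mapt cells, at 157 CPM with 58.6% of 2270 cells positive, whereas the 3 RL libraries lay at 488 ± 24.1 CPM. By mean over libraries the order of classes was Sox2 cells, Sox2 with Atoh1, and then a plateau of 405 to 709 CPM in which neighbouring classes of 2 or more libraries did not differ beyond their spread.

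**Figure D1:**
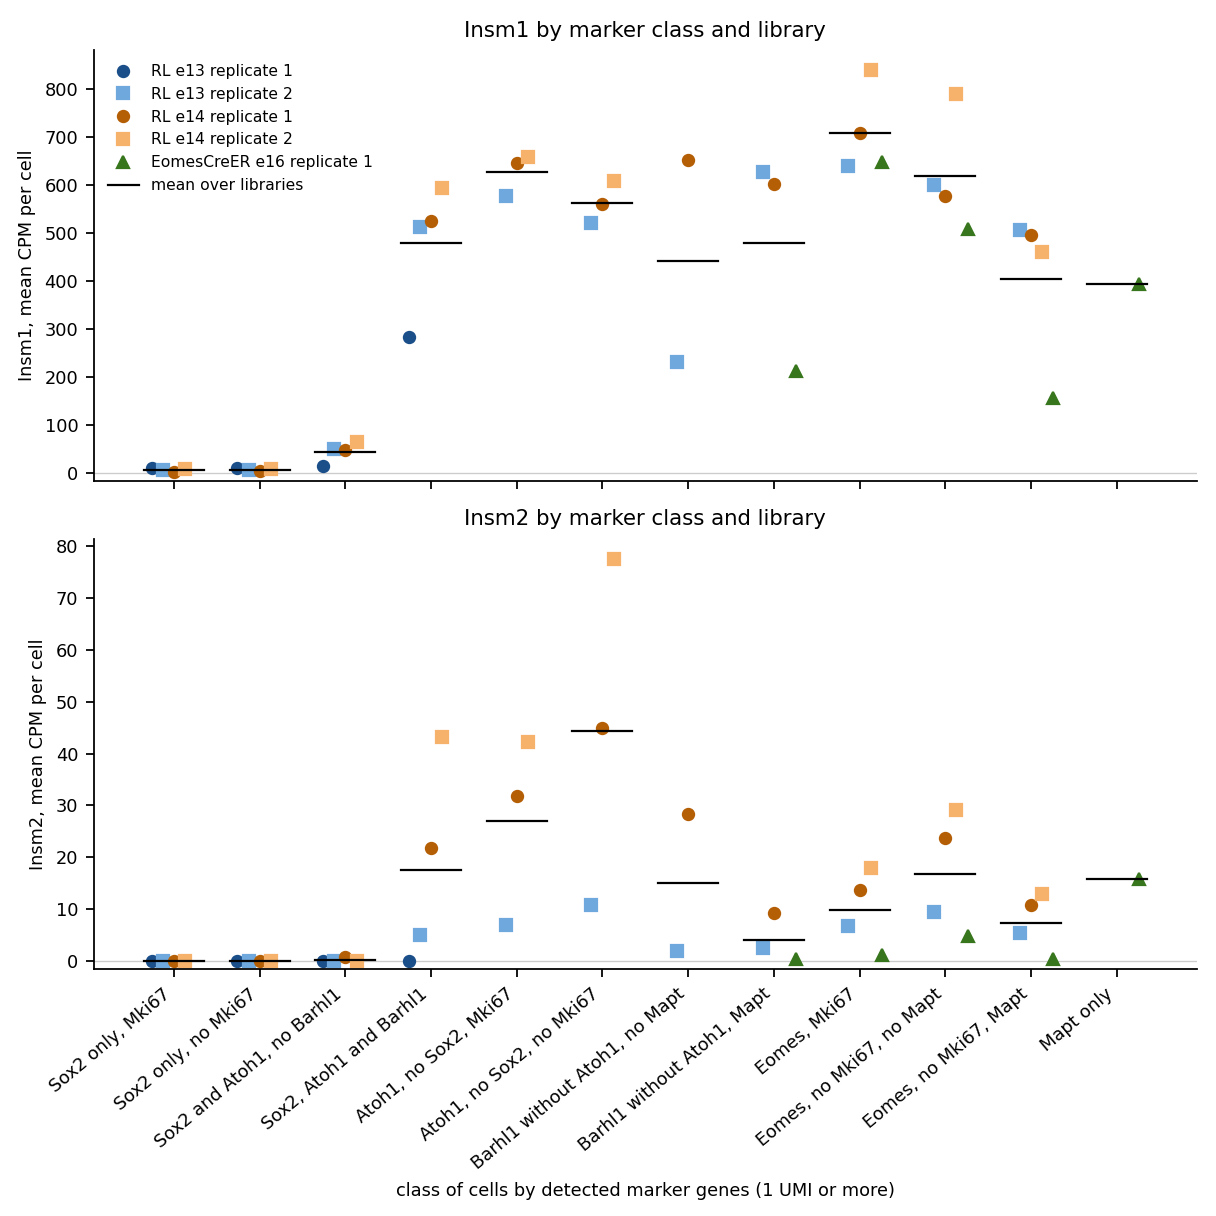
Insm1 (first panel) and Insm2 (second panel) mean CPM, on the vertical axis, in 12 marker classes on the horizontal axis. Each point is 1 library with at least 20 cells of the class and the black line is the mean over libraries. By mean over libraries, Insm1 lies at 6.32 and 6.16 CPM in the Sox2 classes with and without Mki67, between 405 and 709 CPM in the classes with Barhl1, Atoh1 without Sox2, or Eomes, and at 393 CPM in cells with Mapt only, from 1 library. At full depth Insm2 is highest in cells with Atoh1 and neither Sox2 nor Mki67, at 44.4 CPM.

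Counting marker UMIs in thinned cells gave finer steps. Markers were called after thinning, so a bin of 0 can hold cells that had the marker at full depth. At full depth, cells of RL e13 replicate 2 with Sox2 and Atoh1 but no Barhl1 had 48.5 CPM. That is far below the bin of 0 Barhl1 UMIs given next, which also takes in cells without Sox2. The part of thinning in this was not tested. In Atoh1 cells without Eomes, Insm1 was higher with more Barhl1: in RL e13 replicate 2 it was 297, 509, 527, 592 and 614 CPM at 0, 1, 2, 3 to 4 and at least 5 Barhl1 UMIs. RL e14 replicate 1 gave 390, 480, 578, 597 and 642 CPM in the same bins. RL e14 replicate 2 ran from 396 CPM at 0 to 687 CPM in the top bin, with a dip to 536 CPM at 3 to 4 UMIs. Along Sox2 the direction was opposite in both RL e13 libraries and in RL e14 replicate 1. RL e13 replicate 2 had 519, 535, 253 and 178 CPM at 0, 1, 2 and 3 to 4 Sox2 UMIs, and RL e13 replicate 1 had 225, 62.7, 38.1 and 8.0 CPM. RL e14 replicate 1 had 586, 482 and 320 CPM at 0, 1 and 2 Sox2 UMIs. In RL e14 replicate 2 only 0 and 1 Sox2 UMIs had enough cells, at 574 and 590 CPM, without a fall.

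In Eomes cells of e16, Insm1 was lower with more Mapt, the RNA of the axonal protein tau, with 679, 385, 293, 230 and 106 CPM at 0, 1, 2, 3 to 4 and at least 5 Mapt UMIs. The 1504 cells in the top bin are most of that library. RL e14 replicate 2 had 785 and 360 CPM at the ends of the same scale. These steps are levels in the cells that defined the classes and carry no test.

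**Figure D2:**
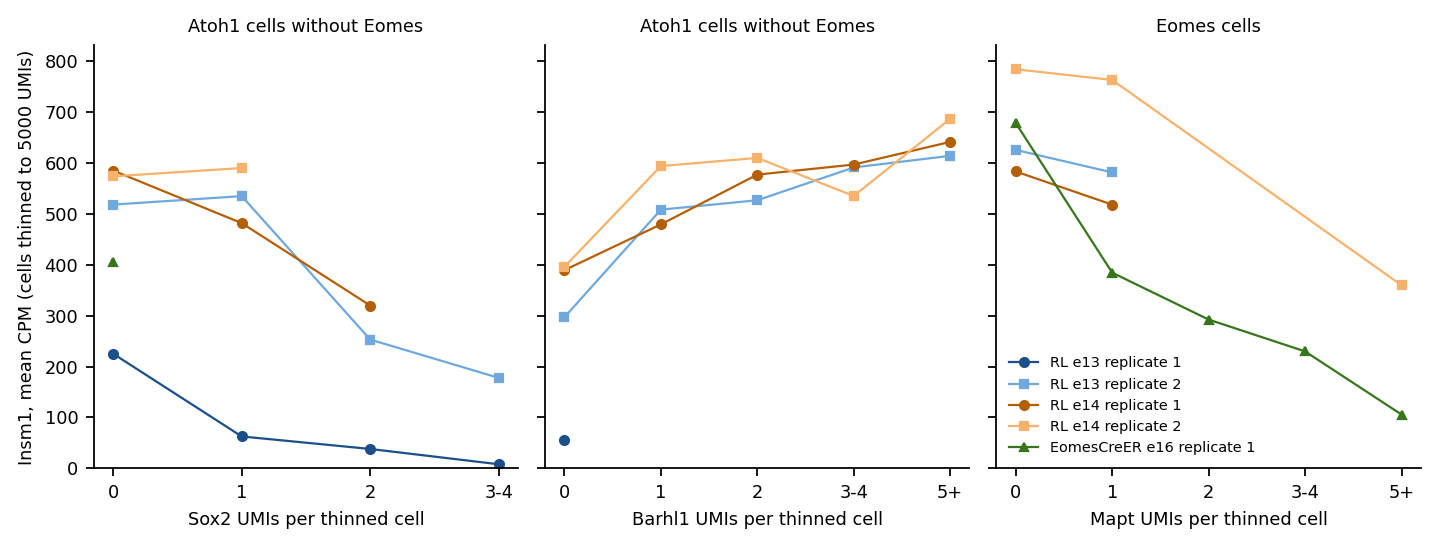
Insm1 CPM (vertical axis) in cells thinned to 5000 UMIs, by the number of UMIs of Sox2 and of Barhl1 in Atoh1 cells without Eomes and of Mapt in Eomes cells (horizontal axes). Each line is 1 library and each point a bin of at least 20 cells. Insm1 is mostly higher with more Barhl1, and mostly lower with more Sox2 but not in RL e14 replicate 2. At e16 it is at 679 CPM with 0 and at 106 CPM with at least 5 Mapt UMIs. Marker UMIs were counted after thinning, so a bin of 0 can hold cells that had the marker at full depth.

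Insm2 was scarce and followed the Atoh1 side. Over all cells it had 0.0498 CPM in RL e13 replicate 1, where 1 cell was positive, and 4.25 CPM in RL e13 replicate 2. It had 18.7 and 30.3 CPM in RL e14 replicates 1 and 2, and 1.34 CPM at e16. The shares of cells with a UMI were 0.142%, 5.39%, 15.0%, 23.6% and 1.20%, and after thinning 0.143%, 2.05%, 7.57%, 10.7% and 0.604%. Positive cells held a median of 1 or 2 Insm2 UMIs, so the shares depend on depth. No UMI was seen in the 15 roof plate and choroid plexus cells, which allows a share of up to 20%.

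No Insm2 UMI was found in any of the 1061 Sox2 cells of the RL libraries. The tightest limits that these counts of 0 allow were 1.46% of 205 non-cycling and 1.22% of 246 cycling cells in RL e13 replicate 2. With Sox2 and Atoh1 but no Barhl1, 1 of 62 cells in RL e14 replicate 1 was positive and none in the other 3 libraries. With Sox2, Atoh1 and Barhl1 the level was 0 and 4.96 CPM in RL e13 replicates 1 and 2 and 21.8 and 43.3 CPM in RL e14 replicates 1 and 2. The RL e14 libraries were thus the higher ones in this class.

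At full depth, Insm2 was highest in Atoh1 cells without Sox2 or Mki67. There it averaged 10.8 CPM in RL e13 replicate 2 and 44.9 and 77.5 CPM in RL e14 replicates 1 and 2, with 11.2%, 31.4% and 52.4% of cells positive. With Mki67 the same cells had 6.95, 31.8 and 42.2 CPM, lower in each of the 3 libraries. Cells with Barhl1 and neither Atoh1 nor Mapt had 1.89 CPM in RL e13 replicate 2 and 28.4 CPM in RL e14 replicate 1. In thinned cells that class had 11.8, 27.7 and 49.5 CPM in RL e13 replicate 2 and RL e14 replicates 1 and 2, against 5.36, 36.8 and 53.1 CPM in Atoh1 cells without Sox2 or Mki67, so the order of these classes depended on the library. Cycling Eomes cells had 6.83, 13.8 and 17.9 CPM in the same RL libraries and 1.22 CPM at e16. Eomes cells with neither Mki67 nor Mapt had 9.42, 23.7, 29.1 and 4.92 CPM, and those with Mapt 5.38, 10.8, 12.9 and 0.482 CPM. In each Eomes class e16 was lowest, and only 16 of 2488 Eomes cells at e16 (0.643%) had an Insm2 UMI, against 16 of the 188 cells without Eomes (8.51%).

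By age, Insm2 averaged 24.5 ± 8.16 CPM at e14 and 2.15 ± 2.97 CPM at e13 over all cells (SD, n = 2 each), a log2 difference of 2.05 on the log2(CPM + 5) scale. That scale is used for all differences below and understates the change of low genes. The groups did not overlap over all cells. Within cells with Sox2, Atoh1 and Barhl1, Insm2 averaged 32.5 ± 15.2 CPM at e14 and 2.48 ± 3.51 CPM at e13 (2.33, n = 2 each), again without overlap. Where only RL e13 replicate 2 stood for e13, the differences within classes were 1.81 and 2.07 in the Atoh1 cells without Sox2 and 0.70 to 1.12 in the Eomes classes, with both e14 libraries higher each time. By its age tag that library is itself e14, and these classes then have no e13 library to compare. Counted by the tag, the Insm2 difference was 2.17 over all cells and 2.50 in cells with Sox2, Atoh1 and Barhl1, with 1 library left at e13.

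For Insm1 the comparison by title gave 479.6 ± 30.1 CPM at e14 and 208 ± 220 CPM at e13 over all cells, a log2 difference of 1.19, but only -0.26 to 0.73 within classes. With RL e13 replicate 2 counted as e14 by its age tag, the all-cell difference of Insm1 became 2.96. By age tag it was 1.61 in cells with Sox2 and Atoh1 but no Barhl1 and 0.93 in those with Barhl1 as well, with 1 library left at e13. These comparisons are a description with no test, and the 4 RL libraries differ in their mix of cells.

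Where Insm2 was detected, Insm1 nearly always was too. Of 463 cells with Insm2, 457 (98.7%) had Insm1, against 63.0% of all cells. The counts were 1 of 1 and 98 of 98 in RL e13 replicates 1 and 2, 155 of 157 and 174 of 175 in RL e14 replicates 1 and 2, and 29 of 32 at e16. At 5000 UMIs per cell the shares were 189 of 212 cells with Insm2 (89.2%), against 51.6% of all thinned cells. The classes that hold Insm2 also hold Insm1: in Atoh1 cells without Sox2, 96.4% to 100% had Insm1 in RL e13 replicate 2 and both RL e14 libraries, and 83.6% to 89.1% did after thinning. The excess over all cells was thus not separable from the mix of classes. The reverse did not hold: 10.4% of Insm1 cells had Insm2, from 0.840% in RL e13 replicate 1 to 29.1% in RL e14 replicate 2.

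Among Insm1 cells of 3 RL libraries the share with Insm2 did not follow the amount of Insm1. In thinned cells of RL e14 replicate 1 it was 10.3%, 9.52%, 10.2% and 7.55% at 1, 2, 3 to 4 and at least 5 Insm1 UMIs, and in RL e14 replicate 2 it was 17.6%, 12.7%, 11.5% and 15.2%. RL e13 replicate 2 gave 4.25%, 2.21%, 2.79% and 3.24%. No library of these 3 showed a steady climb. At e16 the shares were 0.705%, 1.48%, 0.840% and 2.4% in the same bins, highest in the top bin of 125 cells.

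**Figure D3:**
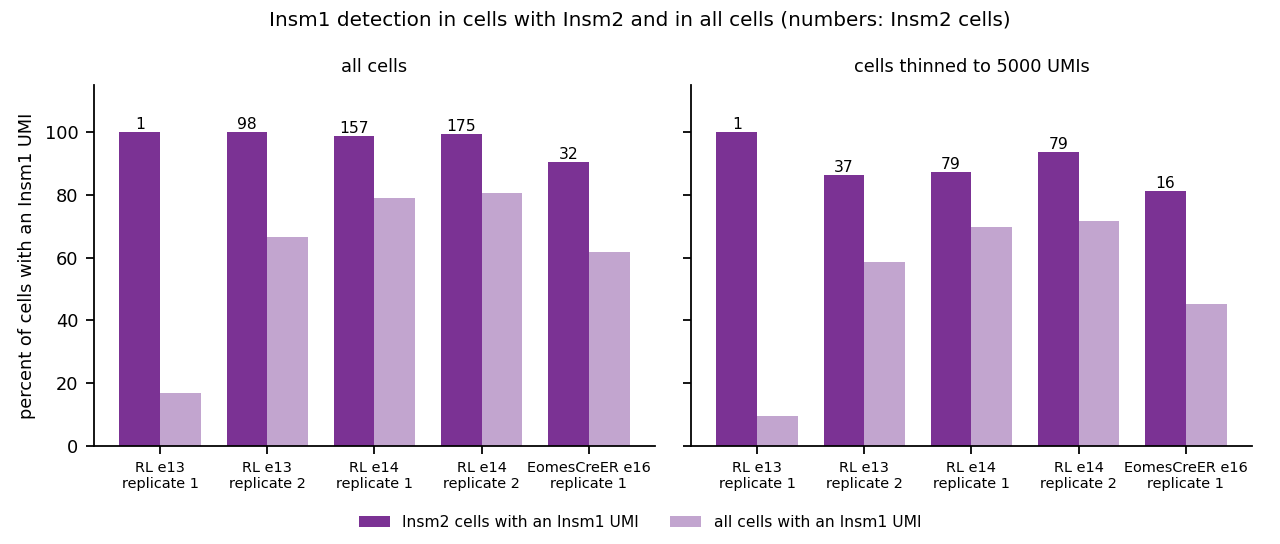
Percent of cells with an Insm1 UMI (vertical axis) among cells with Insm2 (dark bars) and among all cells (light bars) in each library, for full and thinned cells. The numbers give the cells with Insm2. Dark bars exceed light bars in every library at both depths, and the e13 replicate 1 bar rests on 1 cell.

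Atoh1 cells without Eomes allowed the best-replicated comparison of cells with and without Insm1, in all 4 RL libraries. Cells with Insm1 were higher in neuronal genes, in Rcor2 and in several delamination factors, and lower in radial glia genes, Notch targets and 4 of 14 junction genes. There were 66, 759, 507 and 352 cells with Insm1 in RL e13 replicates 1 and 2 and RL e14 replicates 1 and 2, against 238, 153, 60 and 21 cells without. All values below follow that library order, and limma's moderated test ran on library profiles with the library as a block and Benjamini-Hochberg adjustment. It called 619 of 8284 genes higher (7.47%) and 697 lower (8.41%) in cells with Insm1 at an adjusted p under 0.05.

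The median depth was 22246, 19051, 16374 and 21613 UMIs in cells with Insm1, against 18745, 16483, 14878 and 16035 UMIs in cells without, deeper on the Insm1 side each time. In cells thinned to 5000 UMIs, 188 genes were higher and 168 lower. Insm1 and Barhl1 also moved together in these cells, so the comparison crosses the step between progenitors and the granule lineage. It overlaps differences already known from these data and is no independent support for them.

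The corepressor partners of INSM1 moved only in part. Rcor2, a CoREST subunit, had 125, 148, 121 and 140 CPM in cells with Insm1, against 52.2, 53.8, 39.5 and 27.4 CPM without (log2 difference 1.56 ± 0.15 SE, adjusted p = 0.0001987 by limma). All 4 libraries were higher without overlap. Gse1, another component of such complexes, was also higher (1.24, adjusted p = 8.808e-05), a call lost after thinning (0.46, adjusted p = 0.2709). Kdm1a, the demethylase itself, had 317, 346, 286 and 262 CPM with Insm1, against 268, 244, 245 and 228 CPM without, a small rise (0.29, adjusted p = 0.02417) that was lost after thinning (0.12, adjusted p = 0.626) and without RL e13 replicate 2 (0.22, adjusted p = 0.18) or RL e14 replicate 1 (0.31, adjusted p = 0.0931). These were the 3 of 12 tested cofactors that were called, all higher, and the list median was 0.07, against -0.01 over all genes.

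Of 8 delamination and EMT factors tested, 5 rose and 2 fell. Lzts1, which drives apical detachment in mouse cortex, had 80.5, 95.3, 86.9 and 71.5 CPM in cells with Insm1, against 5.60, 14.4, 14.5 and 11.1 CPM without (2.47, limma adjusted p = 2.06e-05). The groups lay far apart in all 4 libraries. Rnd2, a small GTPase of migrating neurons, had 384, 354, 296 and 281 CPM with Insm1, against 121, 89.6, 69.4 and 89.0 CPM without (1.79, adjusted p = 8.677e-06). Scrt1, which like INSM1 carries a SNAG domain, differed by 1.67 (adjusted p = 0.001587), a call lost after thinning (0.84, adjusted p = 0.132). Akna and Zeb1 were the other 2 that rose, and Zeb2 and Foxp2 the 2 that fell (-1.04 and -0.95), all 4 named after their values were seen.

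Plekha7, the junction gene that Insm1 represses in mouse cortex, was low throughout. It had 11.3, 6.13, 7.46 and 7.34 CPM in cells with Insm1, against 16.9, 15.0, 22.0 and 24.1 CPM without (-0.91 ± 0.19 SE, limma adjusted p = 0.01106). Every library was lower on the Insm1 side and the ranges did not overlap. The call was lost without RL e13 replicate 2 (-0.93, adjusted p = 0.0608) and without RL e14 replicate 1 (-0.84, adjusted p = 0.079). Crb2, an apical polarity protein, had 10.4, 2.40, 2.49 and 2.09 CPM with Insm1, against 33.3, 25.8, 28.2 and 24.7 CPM without (-1.90, adjusted p = 0.0003152). With Ctnna1 and Cdh2, these were the 4 of 14 junction and polarity genes called, and none was higher. The call of Ctnna1 was lost after thinning (-0.48, adjusted p = 0.2008).

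Notch genes split by role. Of 11 tested, 3 rose and 7 fell. The effector Hes5 had 128, 31.5, 16.6 and 23.3 CPM in cells with Insm1, against 306, 460, 320 and 389 CPM without (-3.15, limma adjusted p = 0.0006088), and Hes1 fell by 2.39. In every library Hes5 was lower in Insm1 cells, by the least in RL e13 replicate 1. The cell-autonomous inhibitor Dll3 had 27.4, 27.6, 27.6 and 31.9 CPM with Insm1, against 0.913, 0.898, 2.16 and 3.10 CPM without (2.32, adjusted p = 5.366e-05; 1.13 after thinning, adjusted p = 0.0657). The ligand Dll1 had 67.7, 48.2, 22.4 and 28.1 CPM with Insm1, against 74.5, 78.7, 49.2 and 67.5 CPM without (-0.72, adjusted p = 0.01463). Each library was lower, though the ranges of both sides overlapped. This direction turned in cells without Barhl1, as given below, and the call was lost without RL e13 replicate 2 (adjusted p = 0.0654) or RL e14 replicate 1 (adjusted p = 0.1). Hes6, an antagonist of Hes1, rose by 1.25 (adjusted p = 1.747e-05), with 1161, 1326, 1423 and 1408 CPM in Insm1 cells, against 454, 680, 610 and 505 CPM in cells without.

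All 13 tested neuronal differentiation genes were higher (median 2.01) and all 12 radial glia and glial genes lower (median -2.30). Dcx, a microtubule protein of migrating neurons, had 56.2, 93.5, 113 and 114 CPM with Insm1, against 8.39, 7.92, 10.2 and 2.70 CPM without (3.01, limma adjusted p = 7.239e-05). The widest difference of a named gene was that of Nrn1, a neurite growth factor, with 248, 370, 329 and 370 CPM with Insm1, against 1.92, 3.13, 11.5 and 13.9 CPM without (4.84 ± 0.20 SE, adjusted p = 4.411e-06). Gdf10, a BMP-family ligand of cerebellar glia, had 62.8, 6.70, 6.34 and 7.22 CPM with Insm1, against 130, 145, 161 and 266 CPM without (-3.25, adjusted p = 0.00126). Of the 6 tested proneural factors 5 rose and 1 fell, with Neurod2 (2.61), Neurod6 (2.37) and Nhlh2 (1.86) among those that rose. Of 7 rhombic lip genes 5 fell, among them Wnt1 (-2.38) and Cdon (-2.33), and Pax6 rose (0.60).

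S phase genes rose in 9 of 15 cases (Rrm2 0.76, Cdc6 1.08), while of 15 G2 and M phase genes 1, Cenpf, fell. After thinning none of these 3 named genes was called by limma (Rrm2 0.68, adjusted p = 0.1403; Cdc6 0.66, adjusted p = 0.2705; Cenpf -0.02, adjusted p = 0.938). Immediate early genes, which can mark stress during dissociation, moved with Insm1 as well: 6 of 7 were lower, and the summed level of the 10 listed genes was 1356 to 1476 CPM in Insm1 cells and 1762 to 5794 CPM in cells without. The 4 listed roof plate and choroid plexus genes present summed to 2.19 to 62.1 CPM with Insm1 and 37.3 to 101 CPM without, with Ttr at 0 on both sides of RL e13 replicate 1. The 5 endothelial genes present summed to 1.34 to 11.8 CPM with Insm1 and 7.68 to 45.5 CPM without, with Pecam1 at 0 in all 4 profiles without Insm1. The part of these in the result was not tested.

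**Figure D4:**
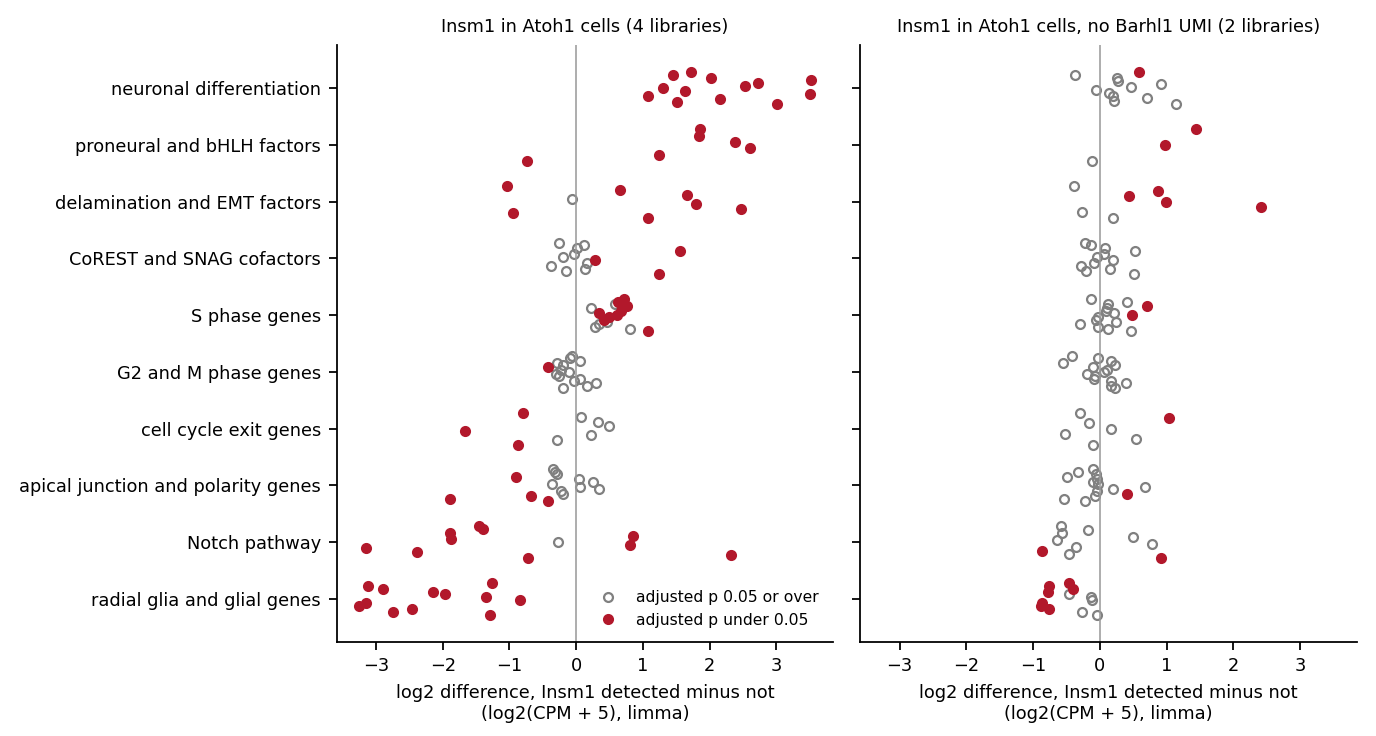
Log2 difference on the log2(CPM + 5) scale (horizontal axis) of single genes of each list (rows), in Atoh1 cells with Insm1 over those without, in 4 RL libraries (first panel) and in cells with no Barhl1 in 2 libraries (second panel). Red points passed an adjusted p of 0.05 by limma. In the first panel all 13 neuronal genes are red and above 0 and all 12 radial glia genes red and below 0. In the second panel 1 of 12 and 7 of 12 are red.

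Restricting the comparison to Atoh1 cells with no Barhl1 UMI took out most of the granule lineage. This was chosen after the class levels had been seen, and left RL e13 replicates 1 and 2, with 30 and 35 cells with Insm1, against 222 and 119 cells without. The fit had 1 residual degree of freedom and took 25.9 from the spread of all genes. Its p-values thus rest mostly on that shared spread, and no alternative settings were run for it. Limma called 71 of 8277 genes higher (0.858%) and 34 lower (0.411%). Of 7 delamination factors tested, 4 were higher and none lower, namely Lzts1, Rnd2, Zeb1 and Rnd3. Lzts1 had 35.5 and 64.0 CPM with Insm1, against 5.24 and 4.62 CPM without (2.41, adjusted p = 1.61e-05). Rnd2 (0.99, adjusted p = 0.004351) and Zeb1 (0.87, adjusted p = 0.01642) were higher too, whereas only 1 of 12 neuronal genes, Tubb3, was called.

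Radial glia genes were also lower in these cells, for 7 of 12 tested. Hes5 had 199 and 212 CPM with Insm1, against 311 and 457 CPM without (-0.86, limma adjusted p = 8.558e-05), and Sox9 fell by 0.78 (adjusted p = 0.0003784). Dll1, the Notch ligand, had 109 and 145 CPM with Insm1, against 67.7 and 60.2 CPM without (0.92, adjusted p = 0.003957), the opposite of its direction in all Atoh1 cells. Gadd45g, a growth arrest protein, had 404 and 1108 CPM with Insm1, against 260 and 400 CPM without (1.04, adjusted p = 5.752e-06). Fst, an activin antagonist, had 84.8 and 158 CPM, against 11.5 and 17.7 CPM without (2.65, adjusted p = 1.913e-08), and Cbfa2t3, a corepressor, 18.4 and 124 CPM, against 3.21 and 9.25 CPM without (2.34, adjusted p = 8.369e-05). Both libraries agreed in direction for each of these genes. Plekha7 (-0.48, adjusted p = 0.7504) and Rcor2 (0.53, adjusted p = 0.3804) did not pass. Of 14 junction and polarity genes none was lower and 1, Ctnnb1, was higher (0.41, adjusted p = 0.01013), and Crb2 was not called (-0.54, adjusted p = 0.5401). Of 7 immediate early genes, Ier2 (-0.51) and Jun (-0.37) were lower here too, and their part in the result was not tested.

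In Sox2 cells without Atoh1, Barhl1 or Eomes, few had Insm1: 30 and 29 cells in RL e13 replicates 1 and 2, against 326 and 422 cells without. Limma called 15 of 8428 genes higher (0.178%) and 5 lower (0.0593%), while 454 had an unadjusted p under 0.05. No gene was called without the library block or without the filter on low levels. With 2 libraries, limma set each gene's spread from the trend over all genes alone, and with a robust estimate of the spread 8 were higher and 5 lower.

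Those called included cell cycle and growth arrest genes. Cdkn1c, the cell cycle inhibitor p57, had 1213 and 304 CPM in cells with Insm1, against 405 and 222 CPM without (1.01, limma adjusted p = 5.337e-19). Gadd45g had 323 and 105 CPM, against 68.0 and 85.9 CPM without (1.22). Hes6 had 467 and 205 CPM, against 182 and 190 CPM without (0.72). Both libraries were higher for all 3 genes, but RL e13 replicate 1 far more so. None of the 3 passed with the robust estimate, where Cdkn1c and Gadd45g had an adjusted p of 0.9996 and Hes6 of 0.584.

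Top2a and Arhgap11a kept their call with that estimate but lost it with 10 cells per profile (limma adjusted p = 0.1581 and 0.5605). Top2a, of cells about to divide, had 674 and 482 CPM with Insm1, against 349 and 440 CPM without (0.54, limma adjusted p = 9.901e-05). Arhgap11a, a GTPase-activating protein, had 88.0 and 75.7 CPM, against 33.3 and 40.7 CPM without (1.05, adjusted p = 0.004099). Of the lists, 3 of 15 G2 and M phase genes were higher, 1 of 15 S phase genes, Mcm6, was lower, and none of 14 junction, 5 delamination, 12 cofactor or 12 radial glia genes was called. Fgf17, an FGF of the isthmus region, had no UMI in the 59 cells with Insm1, against 75.6 and 3.27 CPM in RL e13 replicates 1 and 2 without (-2.37, limma adjusted p = 0.002484). At 3.27 CPM a count of 0 in few cells says little, so the difference rests on RL e13 replicate 1. Its call was lost in 5 of 7 alternatives, such as without the deepest cells (adjusted p = 0.11) and with 10 cells per profile (adjusted p = 0.8991). Plekha7 (0.10), Rcor2 (0.60) and Hes5 (-0.30) were not called. In simulated data this fit found 27% of log2 changes of 1, so a gene that is not called may still differ.

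The summed level of 6 listed genes of the GABAergic lineage, of the neighbouring ventricular zone, was higher with Insm1 here. The sums were 94.8 and 30.6 CPM with Insm1, against 48.4 and 19.9 CPM without. In the Insm1 cells, Pax2 and Gad1 were at 0 in RL e13 replicate 1, and Pax2, Lhx5 and Slc32a1 in RL e13 replicate 2. Only 1 of the 6 was high enough to be tested, and it was not called. Lhx1, a transcription factor of that lineage, had 48.2 and 11.1 CPM with Insm1, against 7.73 and 2.56 CPM without (1.58, limma adjusted p = 0.04311). Lhx1 is not on the list, and it lost its call in 6 of 7 alternatives. Its adjusted p was 0.0529 with the robust estimate and 0.4041 without the deepest cells, and with 10 cells per profile its difference was 0.69 (adjusted p = 0.925). The part of these genes in the differences was not tested.

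Eomes cells could be split by Insm1 only at e16, where 1528 cells had it and 960 did not, at median depths of 10977 and 9615 UMIs. The RL libraries had too few Eomes cells without Insm1, so there is 1 library and no test. Among 6597 genes, 90 (1.36%) differed by over 1 on the log2 scale and 40 (0.606%) by under -1. Only genes with at least 20 CPM on either side were counted, a level that 8 of 15 listed G2 and M phase genes reached. All 8 exceeded 1 in cells with Insm1, with Top2a at 79.2 CPM, against 1.95 CPM in cells without. All but Cenpf passed the filter only through the Insm1 side, so this count was largely fixed by the filter. Cells without Insm1 had more Calb2, the calretinin of mature unipolar brush cells, at 42.2 CPM with Insm1 and 171 CPM without, and more Scg2, at 55.1 and 197 CPM in the same order. Rcor2 had 130 CPM with Insm1 and 75.9 CPM without (0.74), and Rnd3, a small GTPase, 137 and 62.4 CPM (1.08). Kdm1a differed by 0.10.

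Insm1 cells were then split by Insm2. Over all Insm1 cells of 4 libraries (98, 155, 174 and 29 cells with Insm2, against 1110, 672, 424 and 1622 without, in RL e13 replicate 2, RL e14 replicates 1 and 2, and e16), limma called 4 of 8337 genes higher (0.048%) and 4 lower (0.048%), with 1042 at an unadjusted p under 0.05. At e16 the cells with Insm2 were deeper, with a median of 18351 UMIs, against 11008 without. Without e16, 182 genes were higher and 251 lower, and without any one RL library none was called. The neurotrophin Ntf3 had 35.3, 139, 182 and 239 CPM with Insm2, against 5.84, 33.4, 45.1 and 36.8 CPM without (2.06 ± 0.13 SE, adjusted p = 0.01192). The gene Otx2, a transcription factor of the rhombic lip, had 54.7, 82.2, 91.9 and 247 CPM with Insm2, against 96.4, 177, 184 and 543 CPM without (-0.98, adjusted p = 0.0203). In each library Ntf3 was higher and Otx2 lower with Insm2; without RL e13 replicate 2, RL e14 replicate 1 or RL e14 replicate 2 the adjusted p was 0.0936, 0.213 or 0.221 for Ntf3 and 0.0936, 0.264 or 0.304 for Otx2.

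More genes were called within the Atoh1 lineage alone. Among Atoh1 cells without Eomes and with Insm1, those with Insm2 numbered 62 in RL e13 replicate 2 and 110 and 132 in RL e14 replicates 1 and 2, against 697, 397 and 220 without. This restriction was chosen after the class levels had been seen, and no alternative settings were run for it. The fit had 2 residual degrees of freedom and took 22.1 from the spread of all genes. Its p-values thus rest mostly on that shared spread. Limma called 416 of 8157 genes higher (5.1%) and 366 lower (4.49%) with Insm2. Insm1 itself was level, at 539, 557 and 635 CPM with Insm2, against 539, 556 and 602 CPM without, given as a description.

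The widest differences of named genes that were higher with Insm2 were those of Ntf3, Tlx3 and Fgf8. Ntf3 had 44.1, 142 and 175 CPM with Insm2, against 7.29, 29.1 and 37.3 CPM without (2.06 ± 0.10 SE, limma adjusted p = 4.449e-14). Tlx3, a homeobox factor of glutamatergic neurons, had 76.7, 392 and 440 CPM, against 9.70, 101 and 131 CPM without (2.03, adjusted p = 5.608e-14), and the growth factor Fgf8 had 10.99, 50.1 and 48.5 CPM, against 1.60, 8.32 and 14.3 CPM without (1.60, adjusted p = 3.137e-08). All 3 were low in RL e13 replicate 2 on both sides and higher with Insm2 in each library. Of 14 neuronal genes 10 rose and none fell, among them Gap43, a growth cone protein, with 1243, 1341 and 1163 CPM, against 532, 559 and 534 CPM without (1.20, adjusted p = 3.353e-18), and Dcx (1.27). Of 9 cell cycle exit genes 1 rose, the inhibitor Cdkn1a (1.33, adjusted p = 7.078e-07), and 3 fell, among them Cdkn1c (-1.07, adjusted p = 0.002838; lower in 2 of 3 libraries) and Gadd45g.

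Gadd45g, the growth arrest gene, was among the genes with the largest differences in the other direction. It had 264, 155 and 191 CPM with Insm2, against 725, 594 and 687 CPM without (-1.72, limma adjusted p = 1.544e-16). Dll1 had 20.5, 2.26 and 6.88 CPM, against 50.7, 27.9 and 40.9 CPM without (-1.75, adjusted p = 1.33e-08). Neither gene overlapped between the sides. Of 7 radial glia genes 6 fell, of 6 Notch genes 3, of 15 G2 and M phase genes 5 and of 15 S phase genes none, with none of these rising. Wls, a rhombic lip marker needed for Wnt secretion, had 47.0, 21.7 and 19.8 CPM, against 101, 67.7 and 53.2 CPM without (-1.24, adjusted p = 3.565e-09). Of 8 delamination factors 3 fell and none rose, namely Rnd3 (-0.67), Zeb1 (-0.39) and Zeb2 (-0.33), and no CoREST cofactor of 12 was called.

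**Figure D5:**
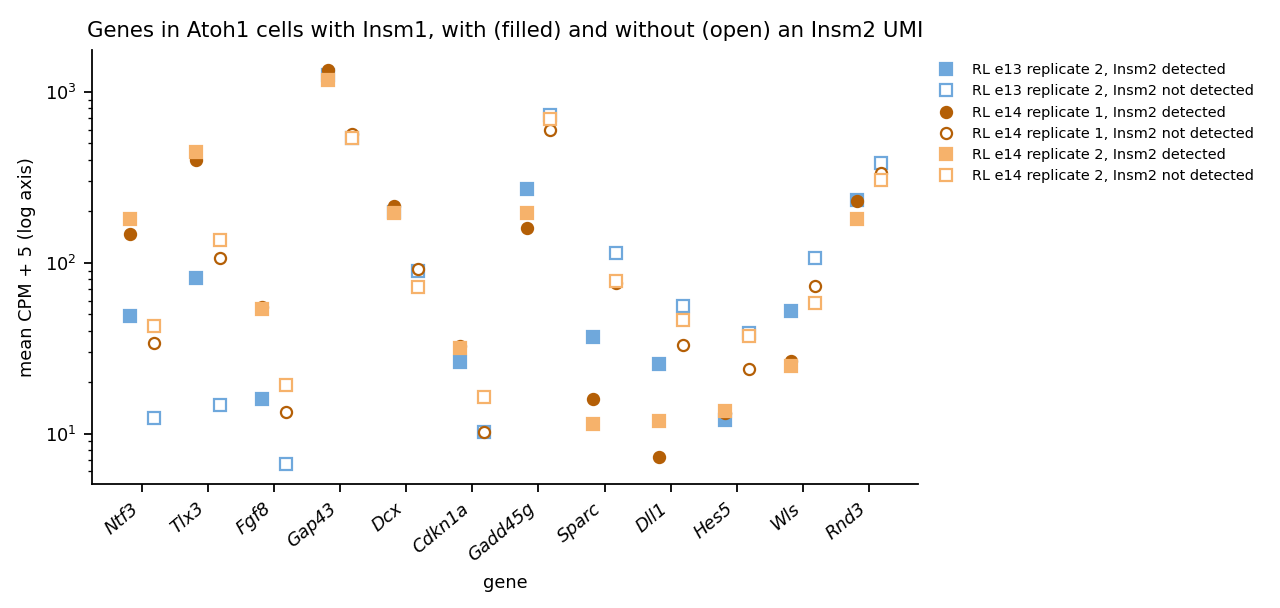
Mean CPM + 5 on a log axis (vertical) of 12 genes in Atoh1 cells without Eomes that have Insm1, with Insm2 (filled) and without (open), in RL e13 replicate 2 and RL e14 replicates 1 and 2 (horizontal axis). Filled points lie above open ones for Ntf3, Tlx3, Fgf8, Gap43, Dcx and Cdkn1a, and below them for Gadd45g, Sparc, Dll1, Hes5, Wls and Rnd3, in each library.

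The Insm1 differences of the Sox2 and Atoh1 cells were also compared with each other, in the 2 RL e13 libraries. The 2 splits are unlike. In RL e13 replicate 2, Sox2 cells with Insm1 held 13 UMIs in 12 non-cycling and 19 UMIs in 17 cycling cells. The 451 Insm1 cells with Sox2, Atoh1 and Barhl1 held 5086 UMIs. The Atoh1 split also crosses the Barhl1 step, which the Sox2 cells leave out. The part of this in the result was not tested. Limma's test of the difference called 0 of 8444 genes (0.0%) as more positive in Sox2 cells, and 8 (0.0947%) as more negative, with 984 at an unadjusted p under 0.05 in either direction. The plainest case was Nrn1 (-5.26, adjusted p = 0.01858), which averaged 309 CPM in Atoh1 cells with Insm1 and 2.53 CPM in those without, and 3.33 CPM in Sox2 cells with Insm1 and 2.16 CPM in those without. The difference was not called for Plekha7 (0.73), Rcor2 (-0.68) or Hes5 (2.15, limma adjusted p = 0.353). In simulated data this fit found 7% of log2 changes of 1 and 65% of those of 2, so a gene that is not called may still differ.

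Across 40 profiles of marker class and library, the genes whose log2(CPM + 5) pattern was most like that of Insm1 among 8504 genes were Igfbpl1 (Pearson r = 0.974), Cbfa2t3 (0.968), Rcor2 (0.962), Igsf21 (0.961), Ebf3 (0.956), Lzts1 (0.953), Sstr2 (0.946), Shb (0.943), Nrn1 (0.942) and Onecut2 (0.941). The least like were Ctso (-0.924), Mlc1 (-0.911), Crb2 (-0.910), Plat (-0.904) and Vcam1 (-0.903). Among the markers of the rule r was 0.907 for Barhl1 and -0.737 for Sox2, and it was 0.715 for Insm2. The profiles share libraries and were sorted by the markers, so these values describe likeness only. For Insm2 the closest gene was Fgf8 (0.885), followed by Igfbp2 (0.847), Bcl2l13 (0.846), Ntf3 (0.835), Spsb4 (0.827) and Tlx3 (0.824).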

How the data were processed

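Per the labels' protocols, single-cell libraries were made with 10x Chromium v3 and v3.1 kits, which read the 3′ end. Per the submitters' processing notes, Cell Ranger and mm10 were used. The sources used here give neither the filters on cells nor the treatment of doublets. The authors deposited natural log values, each ln(1 + 10000 × share of the cell's UMIs). From these, whole UMI counts were recovered for all 29540669 nonzero values, within 0.01 of a count.

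Genes were called detected at 1 UMI. Levels were mean CPM over cells. Profiles of at least 20 cells per library and side were compared as log2(CPM + 5), for genes with a mean of at least 10 CPM, with limma 3.58.1 in R 4.3.3 (trend, library as a block, Benjamini-Hochberg, 0.05), so a library is the pair of its 2 sides. Counts were not summed for a count test, since cells were weighted equally. Insm1, Insm2 and the 6 markers were left out as outcomes. Named genes were the 5 highest and 5 lowest called genes moving alike in every library and reaching 20 CPM, up to 3 called members per list, and Plekha7, Rcor2, Kdm1a, Dll1, Dll3, Hes5, Neurod1 and Hes6. Genes outside this rule, such as Akna and Foxp2, were named after their values were seen. The members, lists and comparisons were chosen with earlier results of these data known.

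Alternatives were another scaling (TMM), pseudocount, low-level filter, block, UMI call, thinning to 5000 UMIs (49 cells left out), leaving out the 5% deepest cells, 10 cells per profile, each library left out, and a robust spread. The fits restricted to Atoh1 cells without Barhl1, and to Insm2 within Atoh1 cells, had no alternatives of their own. The other fits were tested on simulated data. Python 3.11.15, numpy 2.4.6, scipy 1.17.1, pandas 2.3.3 and matplotlib 3.10.9 were used. Coding sequences came from the mm10 genome and its GENCODE annotation. Some listed genes, such as Afdn, Nectin3 and Gfi1, were not analysed here, and some results are not reported here.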

Additional observations from a re-analysis of the deposited data

Results flagged for a closer look

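For 8 genes the difference between cells with and without Insm1 was itself different between Sox2 cells and Atoh1 cells of RL e13 replicates 1 and 2, by limma's test of the difference of differences (Benjamini-Hochberg, 0.05). On the log2(CPM + 5) scale these differences of Sox2 cells minus Atoh1 cells were -5.26 for Nrn1, -3.31 for Mab21l1, -3.28 for Sstr2, -2.99 for Igfbpl1, -2.58 for Mfap4, -1.71 for 2510009E07Rik, -1.22 for Cd63 and -0.98 for Sox4. All 8 were more positive with Insm1 in Atoh1 cells. The Atoh1 split also crosses the Barhl1 step, which the Sox2 cells leave out, and the part of this was not tested. The same test called none with a pseudocount of 1, without the filter on low levels or without the library block.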

How the results depend on the processing

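Counts are genes higher and genes lower. Sox2 cells with Insm1 (15 and 5) gave 12 and 8 with TMM scaling, 13 and 3 with a pseudocount of 1, 0 and 0 without the filter, 4 and 0 without the deepest cells, 1 and 0 with 10 cells per profile, and 8 and 5 with a robust spread. Atoh1 cells with Insm1 (619 and 697) gave 188 and 168 when thinned, 71 and 34 without Barhl1, and 351 to 647 higher and 333 to 715 lower as each library was left out. The lowest counts came without RL e13 replicate 2; leaving out RL e14 replicate 1 gave 376 and 352. Dll1 (0.92), Ung (-0.14) and Cdkn1c (0.16) turned direction in cells without Barhl1; the cause was not tested. Insm1 cells with Insm2 (4 and 4) gave 200 and 276 with 2 UMIs called detected, 22 and 45 when thinned, 182 and 276 without the deepest cells, 416 and 366 in Atoh1 cells alone, 3 and 1 without the filter, and 0 to 182 higher and 0 to 251 lower as each library was left out. Neurod1 (0.64) and Hes6 (-0.24) turned direction in Atoh1 cells alone, against -0.47 and 0.24 in all Insm1 cells. The difference between Sox2 and Atoh1 cells (0 and 8) gave 29 and 77 with 10 cells per profile, 1 lower without the deepest cells, and 0 lower with a pseudocount of 1 or without the filter.

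With no replicate block the counts were 0 and 0 in Sox2 cells, 378 and 385 in Atoh1 cells, 0 and 0 for Insm2 and 0 lower for the difference; the pairing is that both sides come from 1 library. No paired analysis was possible for e14 against e13 because the titles of these groups share fewer than 2 replicate numbers. Of 1012 values of named genes under alternatives, 799 were unchanged in call, 199 kept direction and lost the call, 9 gained it and 5 turned. The 799 include genes called in neither the main nor the alternative fit, whose direction was not compared. A turn was counted only where the main or the alternative fit called the gene. Of 150 shares by class, 22 moved by more than the spread between libraries. The thinned, 2-UMI and leave-one-out fits of Sox2 cells and of the difference could not be fitted, and Eomes cells had 1 library.

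Depth limits Insm2 most, since most positive cells hold 1 or 2 UMIs. The absence of an Insm1 UMI does not show the absence of the RNA. The Sox2 results rest on 59 cells with Insm1.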

Other observations

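A few e16 cells had Mapt and none of the other lineage markers. Insm1 was detected in 27 of these 29 cells (93.1%) at 393 CPM, above the 157 CPM of the Eomes and Mapt cells of that library, and 3 of the 29 had Insm2 (15.9 CPM). At e16, Insm1 averaged 655 CPM in cells with Mki67 and 169 CPM in cells without, and 178 CPM in the 2528 cells with Mapt and 638 CPM in the 148 cells without.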
